A study of Mus musculus with 48 samples.

Results

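The experiment was the comparison of S46 mice with their nontransgenic controls at 3.5 months of age, described here across all genes measured in the cerebellum. It took 8 of the 48 arrays in the series, chosen by line and age from the sample labels: 4 transgenic mice and 4 controls, with 1 animal on each array. The transgenic mice carried exon 1 of Htt with 142 glutamines (142Q) joined to a nuclear localization signal. Controls, which the series describes as littermates, carried no transgene. In each group mouse 1 was male and mice 2 to 4 were female. Titles of the transgenic samples give 3 months and their descriptions 3.5 months, and 3.5 months was used. The study profiled 5 lines on Affymetrix MG-U74Av2 arrays. Lines with 142Q were profiled at the first age at which a rotarod deficit was found, some again later. The study asked what nuclear and what extranuclear polyglutamine adds to the motor disease. Results are set beside S46 at 10 months, S25 (nuclear 142Q) at 3 months and A39 (142Q with a nuclear exclusion signal) at 4 months. Some S25 controls were 2.5 months old. The spread used in the tests also came from A39 at 10 to 10.5 months, A61 at 8 months and X50 at 16 months. A61 carried 142Q with a nuclear exclusion signal, and X50 carried 18 glutamines with a nuclear localization signal. S46 is 1 transgenic line, and the strain, the promoter and the cells that express the transgene are not given in the sources used here.

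Huntington's disease follows from an expanded glutamine repeat in exon 1 of huntingtin. The fragment that exon 1 encodes is known to misfold, to gather in inclusions and to bind transcription factors, co-activators and chaperones, and a nuclear localization signal moves it to where those factors act. In the cerebellum the Purkinje cells are the sole output of the cortex. They fire with the help of calcium buffers and pumps, glutamate transporters and G-protein regulators, and transcripts of these proteins are known to be lowered in several polyglutamine mouse models.

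The deposited values had a trimmed mean of 500.2 to 500.3 in each array. A shared mean of this kind can be set by scaling, so it is no check of the arrays. Signal is the deposited probe-set intensity, scaled to a common trimmed mean, and a log2 difference is the mean of log2(signal + 18.7) in transgenic mice minus that in controls. A percentage of control is the same difference turned back to a ratio. Transgenic mouse 3 and control 4 stood apart from the other arrays, with mean correlations of 0.903 and 0.897 with the remaining 7 arrays, against 0.930 to 0.936 for the others. The 3′ to 5′ signal ratio, a measure of intact RNA, was 0.969 to 1.16 for Gapdh and 1.21 to 1.51 for actin. All 8 arrays came from 1 scan day and 1 chip lot. Mice 1 and 2 of both groups were processed on 1 fluidics station and mice 3 and 4 on another, so neither stood for genotype. Granule neuron markers were bright, as in cerebellum: Gabra6, a GABA receptor subunit of granule neurons, averaged 12422 in transgenic mice and 10750.3 in controls.

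No gene passed the test in S46 mice at 3.5 months. Of 7453 probe sets tested, 0 (0%) had an adjusted p below 0.05 in limma with Benjamini-Hochberg adjustment, and the smallest adjusted p was 0.0639. That value belonged to a probe set with no gene symbol, which read 453, 462, 398 and 457 in transgenic mice against 706, 630, 648 and 746 in controls. At an adjusted p below 0.1 there were 8 probe sets, and below 0.2 there were 17. Without adjustment 835 had a p below 0.05, of which 404 (5.42%) were higher in transgenic mice and 431 (5.78%) lower, where 373 would fall below it by an even spread of p. With the spread estimated from the 8 arrays alone the count was 385 with 0 past the adjusted threshold. Leaving out single arrays gave 0 to 5 past the threshold (5 without control 1), and the female arrays alone gave 10. The median within-group SD was 0.276 log2 units in these 8 arrays and 0.221 in the other 40, so that an estimate from all 48 arrays was the smaller.

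**Figure D1:**
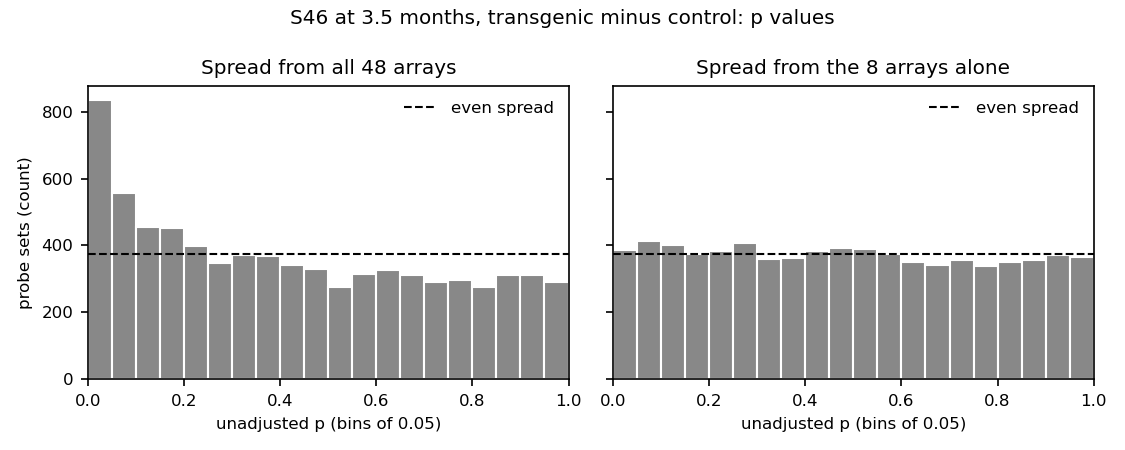
Unadjusted p values of the 7453 probe sets for transgenic minus control S46 mice at 3.5 months, in bins of 0.05, with the number of probe sets on the vertical axis. On the left the spread came from all 48 arrays and the lowest bin holds 835. On the right it came from the 8 arrays of this comparison and the lowest bin holds 385, near the 373 of an even spread (dashed line).

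Differences were small for most transcripts. The median log2 difference over all probe sets was 0.00, and the 5th and 95th percentiles were −0.47 and 0.38. Only 45 probe sets differed by more than 1 log2 unit. The 95% interval lay inside 1 log2 unit of no difference for 6706 probe sets (90.0%) and inside 0.5 units for 3775 (50.7%). These intervals used the spread of the whole series. The median spread was larger in the arrays compared here, so the intervals may be too narrow for these mice. All 4 transgenic arrays lay above all 4 control arrays for 111 probe sets (1.49%) and below them for 132 (1.77%).

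The genes described next had the smallest p among those whose groups did not overlap, so their separation was a condition of their choice. Gtf3c5, a subunit of TFIIIC that recruits RNA polymerase III to tRNA genes, read 339.8, 423, 347 and 312 in transgenic mice against 282, 184, 117 and 160.2 in controls. Its mean was 190% of control (log2 difference 0.92, SE 0.20, limma adjusted p = 0.0751). Pttg1ip, a membrane protein that binds securin, read 1462, 1146, 1322 and 1193 in transgenic mice against 1066, 952, 953 and 653 in controls. Pttg1ip stood at 142% of control (log2 0.51, SE 0.11, limma adjusted p = 0.0751), with control 4 the lowest array. Phkg2, a catalytic subunit of the kinase that switches on glycogen phosphorylase, read 727, 874, 1236 and 822 in transgenic mice against 583, 631, 641 and 503 in controls. That was 151% of control (log2 0.60, SE 0.13, limma adjusted p = 0.0751), and transgenic mouse 3 was the highest.

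Brd2, a bromodomain reader of acetylated histones, was 236% of control. It read 209, 273, 294 and 268 in transgenic mice against 117, 163, 149.8 and 27.4 in controls (limma adjusted p = 0.148). Its log2 difference was 1.24, or 0.79 without control 4. The other 8 higher genes had adjusted p values from 0.148 to 0.249. They were Acyp1 (137% of control), an acylphosphatase, Zc3h14 (142%), which binds poly(A) tails, Zfp90 (188%), a zinc finger repressor, and Vamp4 (136%), a SNARE of the Golgi. The rest were Lrrfip2 (234%), Ndufab1 (140%), the mitochondrial acyl carrier protein, Trak1 (138%), an adaptor that ties mitochondria to kinesin, and Hikeshi (134%), an importer of Hsp70 into the nucleus. Vamp4 had a second probe set at a log2 difference of −0.08 beside 0.44, so its probe sets disagreed.

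Impdh1 led the lower genes by p. This enzyme of guanine nucleotide synthesis read 391, 417, 298 and 420.2 in transgenic mice against 570.5, 500.2, 617 and 463 in controls. It stood at 71.7% of control (log2 −0.48, SE 0.10, limma adjusted p = 0.0751). Ptpn5, the striatum-enriched tyrosine phosphatase STEP, read 202, 159, 222 and 172 in transgenic mice against 260.3, 369, 292 and 333 in controls. Its level was 62.5% of control (log2 −0.68, SE 0.15, limma adjusted p = 0.0800). Ltk, a receptor tyrosine kinase, read 614, 794, 932 and 752 in transgenic mice against 1171, 1063, 1222 and 1185 in controls, or 66.5% of control (limma adjusted p = 0.171). The controls of Ltk lay close together and the transgenic mice spread more widely.

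The other 9 lower genes had adjusted p values from 0.148 to 0.249. Sinhcaf (43.4% of control), of the Sin3 histone deacetylase complex, read 84.7, 26.7, 56.4 and 138 in transgenic mice against 158, 178, 182 and 204 in controls. Mcm4 (71.0%) is part of the replicative helicase, Samhd1 (62.0%) breaks down deoxynucleotides, and Coasy (72.6%) makes coenzyme A. Fbxl5 (55.1%) is the iron-sensing subunit of a ubiquitin ligase, Ubxn8 (65.1%) ties the p97 ATPase to the endoplasmic reticulum, and Slc7a5 (78.4%) carries large neutral amino acids. Without transgenic mouse 3, which read 25.6, the log2 difference of Fbxl5 was −0.48, against −0.86 with it. Plac8 (60.0%) completed the set with Mapt, which encodes tau. Mapt was 71.6% of control on 1 probe set, with log2 differences of −0.48, 0.12 and 0.06 on its 3 probe sets, so it had no single direction.

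**Figure D2:**
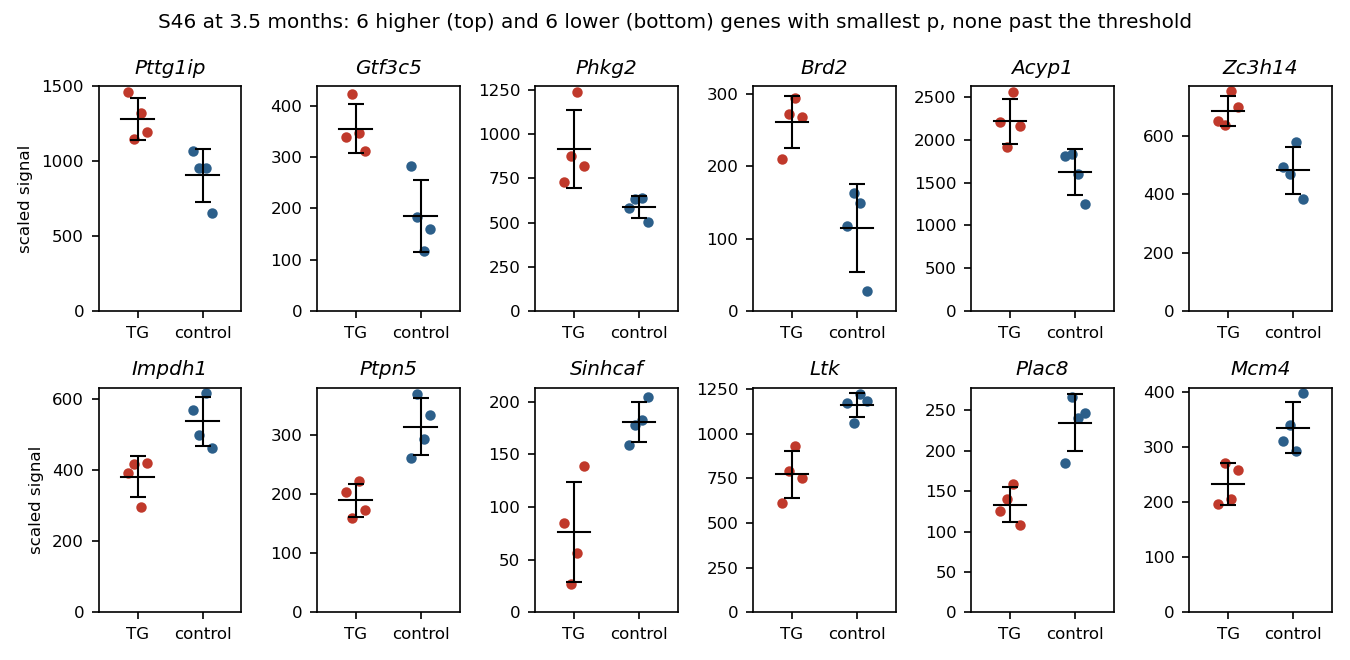
Scaled signal (linear axis from 0) of the 6 higher (top) and 6 lower (bottom) genes with the smallest p, each point 1 mouse, transgenic (TG) left and control right, with the mean and SD (n = 4 each) as bars. Groups do not overlap in any panel, which the choice of genes required. Brd2 control 4 sits at 27.4, away from the other 3 controls.

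Htt, the mouse huntingtin gene, was represented by 2 probe sets, which check neither the genotype nor the transgene, since their position relative to exon 1 was not used here. The dimmer probe set read 728, 719, 681 and 741 in transgenic mice against 662, 673, 652 and 481 in controls. The groups did not overlap, by a margin of a few units (117% of control, log2 0.22, SE 0.14, limma adjusted p = 0.551). The brighter probe set read 2006, 1889.5, 2584 and 1733 in transgenic mice against 1748, 2249, 2257 and 2394 in controls, with full overlap (94.6%, adjusted p = 0.826). The mouse transcript therefore had no direction shared by both probe sets.

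Purkinje cell transcripts showed no difference past the test in S46 mice at 3.5 months, and the intervals bounded it under the spread of the whole series. Of 22 genes in the Purkinje list, 14 were on the array and 13 were tested. Of these 0 passed the adjusted threshold, 0 had an unadjusted p below 0.05 and 0 had groups that did not overlap. Of all probe sets, 5.42% were higher and 5.78% lower at that p, and 1.49% and 1.77% did not overlap. The 13 genes had a median log2 difference of 0.03, beside 0.00 over all 5639 genes tested. Among them 8 of 13 were positive, beside 50.8% of all genes. The 95% interval of every tested member lay inside 1 log2 unit. The median within-group SD was 0.276 log2 units in S46 at 3.5 months and 0.221 in all other groups. Intervals from the pooled spread may therefore be too narrow for these mice, and the bound is less firm. In whole tissue fewer cells of a type and less RNA per cell cannot be told apart, which holds for each cell type list here.

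Calb1, the calcium buffer calbindin that fills Purkinje cells, read 7492, 7266, 7986 and 8197 in transgenic mice against 5847, 7404, 7327 and 6961 in controls. Its interval ran from −0.02 to 0.36 log2 units (limma adjusted p = 0.484). Rgs8, which shortens G-protein signals, read 5734, 5170.1, 6341 and 6060.3 in transgenic mice against 5457, 5685, 5932 and 5146 in controls. That interval was −0.14 to 0.27 (limma adjusted p = 0.851), and the groups of both genes overlapped. Fam107b read 2309, 2084, 2069.9 and 2286 in transgenic mice against 2046, 2252, 2090.3 and 2327 in controls, which is 100% of control.

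Among members that handle glutamate and calcium, Slc1a6, the Purkinje glutamate transporter EAAT4, read 3545, 2939.5, 2584 and 3528 in transgenic mice against 3189, 3040.3, 3159 and 2339 in controls (107% of control). Homer3, a scaffold that links metabotropic glutamate receptors to calcium stores, read 2017, 1729, 1767 and 1703 in transgenic mice against 1941, 1980.2, 2090.3 and 1796 in controls (92.4%). Inpp5a, which ends the inositol trisphosphate signal, stood at 116% of control on its brighter probe set and at a log2 difference of −0.07 on the other. Each of these 3 genes overlapped between the groups. The lowest member was Cacna1g, a T-type calcium channel, at 76.7% of control (log2 −0.38, limma adjusted p = 0.621). Gad1, which makes GABA, was at 85.9% with transgenic mouse 3 at 3129 against 6018 to 7263 in the other 3 transgenic mice. Pvalb (parvalbumin), Pcp2, Ppp1r17, Car8 and Atp2a3, a calcium pump, had log2 differences of 0.03, 0.10, 0.18, −0.05 and −0.10.

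Taken array by array, the list median ran from −0.071 to 0.127 log2 units in transgenic mice and from −0.117 to 0.096 in controls, where 0 is the control mean of each gene. Summed signal of the list was 61768 to 70297 in transgenic mice and 62042 to 65980 in controls. Within the first fluidics station the median difference was −0.03 and within the second 0.15, with 2 mice of each group in either. Without transgenic mouse 3 and control 4, the arrays that stood apart, the median was −0.01.

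The same 13 genes were low elsewhere in the series. Their median was −1.06 in S46 at 10 months (3 transgenic and 3 control mice), −1.86 in S25 at 3 months (3 and 3), a second line with the nuclear 142Q fragment, and −0.72 in A39 at 4 months (4 and 4), whose 142Q fragment carries a nuclear exclusion signal. In those comparisons 10, 13 and 11 of the 13 fell past the threshold, where 0.765%, 2.19% and 1.13% of all probe sets did. The list was chosen with earlier results of these data known, so these counts give no independent evidence. The 3 tests of a difference between effects all use the 8 arrays described here and are not independent of each other. Calb1 differed from S46 at 10 months by 1.19 log2 units, from S25 by 2.00 and from A39 by 0.88 (limma adjusted p = 2.53e-06, 3.38e-13 and 0.00011). For Rgs8 these differences were 1.13, 2.06 and 1.10 and for Fam107b 0.98, 1.51 and 1.28, all past the threshold.

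**Figure D3:**
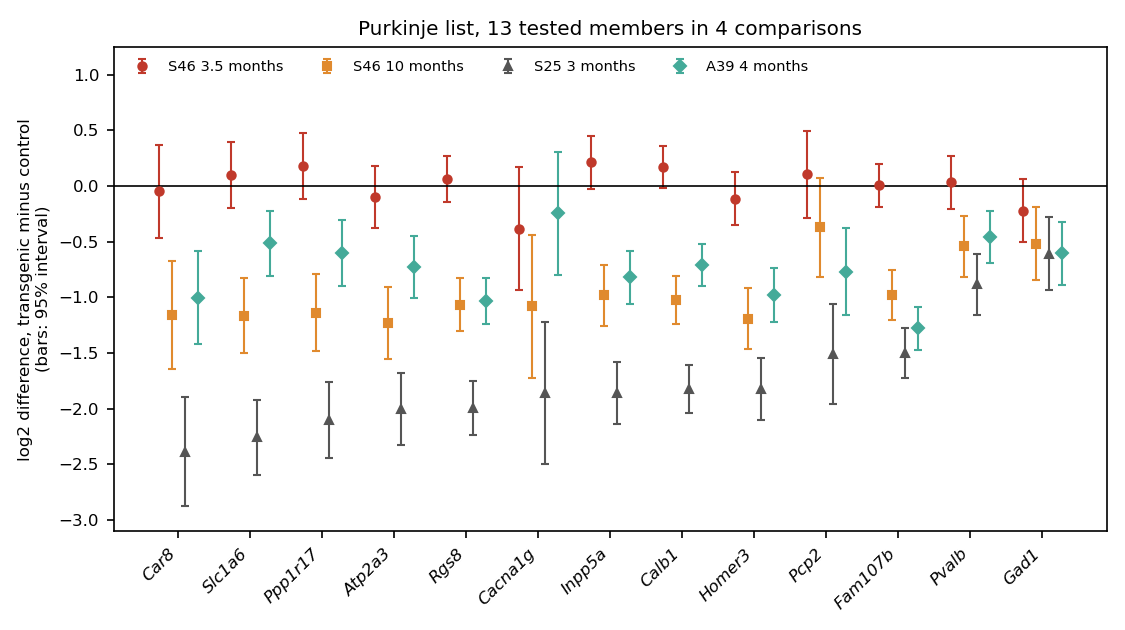
Log2 difference, transgenic minus control, with 95% intervals for the 13 tested Purkinje genes in S46 at 3.5 months (8 mice), S46 at 10 months (6), S25 at 3 months (6) and A39 at 4 months (8). S46 at 3.5 months lies around 0, between −0.38 and 0.22, while the medians of the other comparisons are −1.06, −1.86 and −0.72.

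Lists of other neurons and glia also had medians near 0, and no member of any list passed the adjusted threshold. Granule neuron genes had a median of 0.02. Beside 5.42% of all probe sets, 2 of 13 were higher at an unadjusted p below 0.05, and 0 were lower. These were Zic1, a transcription factor of the granule lineage (116% of control, limma adjusted p = 0.354), and Gabra6 (117%). Among 14 genes of Bergmann glia and astrocytes the median was 0.04. Gfap, the filament of reactive astrocytes, read 775, 831, 844 and 773 in transgenic mice against 890.5, 1068, 952 and 849 in controls. Every transgenic array was below every control array, but the size was 86.3% of control (log2 −0.21, SE 0.14, limma adjusted p = 0.599). Glul, glutamine synthetase of astrocytes, was 68.7% of control on its brighter probe set and had a log2 difference of 0.15 on the other.

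Microglial genes had a median of −0.04, with 4 of 10 positive. C1qa, a chain of complement C1q and a marker of microglia, read 523, 521, 595 and 432 in transgenic mice against 676, 627, 443 and 586 in controls (89.6%, limma adjusted p = 0.755). C1qb had log2 differences of 0.55 and −0.59 on its 2 probe sets. In S25 mice the list median was 1.02 with 6 members higher past the threshold, where 1.46% of all probe sets were. The list was chosen with earlier results of these data known. C1qa differed between the lines by −1.80 log2 units, Gfap by −1.39 and Ctss, a lysosomal protease of microglia, by −1.30 (limma adjusted p = 4.37e-06, 4.81e-05 and 0.00112). Oligodendrocyte genes (10 tested, median −0.03) included Mobp of myelin at 124% of control (log2 0.31) and the gap junction gene Gjb1 at 71.9% (log2 −0.48). Leaving out transgenic mouse 3 gave Mobp 0.17 and Gjb1 −0.30. Other single arrays moved both by similar amounts: Mobp without control 4 and Gjb1 without transgenic mouse 2.

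Smaller lists of inhibitory interneurons, vessels and meninges, and blood had medians of −0.09, 0.00 and 0.06 over 6, 11 and 4 genes. Tfap2b, a transcription factor of interneurons, was 67.2% of control (limma adjusted p = 0.393) without overlap. Among 6 brainstem and midbrain genes (median −0.14), Glra1, the glycine receptor subunit, was 56.3% of control (limma adjusted p = 0.249). Glra1 read 198, 574, 383.5 and 288 in transgenic mice against 572, 709.6, 481.5 and 715 in controls. Markers of choroid plexus, which lies next to the cerebellum and can come along in dissection, moved with individual animals. Their median was −0.57 over 4 tested genes, or −0.96 without transgenic mouse 3 and control 4. At an unadjusted p below 0.05, 1 of the 4 was lower, Folr1, where 5.78% of all probe sets were lower. Ttr, its carrier of thyroid hormone, read 3079.8, 99.2, 4522 and 184 in transgenic mice against 3367, 1135, 485 and 2082 in controls. Folr1, its folate receptor, read 153, 38.1, 174 and 39.3 in transgenic mice against 399, 222, 189 and 218 in controls (38.5%, limma adjusted p = 0.287). Both genes were lowest in transgenic mice 2 and 4. The log2 difference of Ttr ran from −1.76 to −0.01 as single arrays were left out, the smallest without transgenic mouse 2. The summed signal of the 4 tested choroid genes was 2387 to 7998 in transgenic mice and 3455 to 6808 in controls, and its part in other results was not tested.

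**Figure D4:**
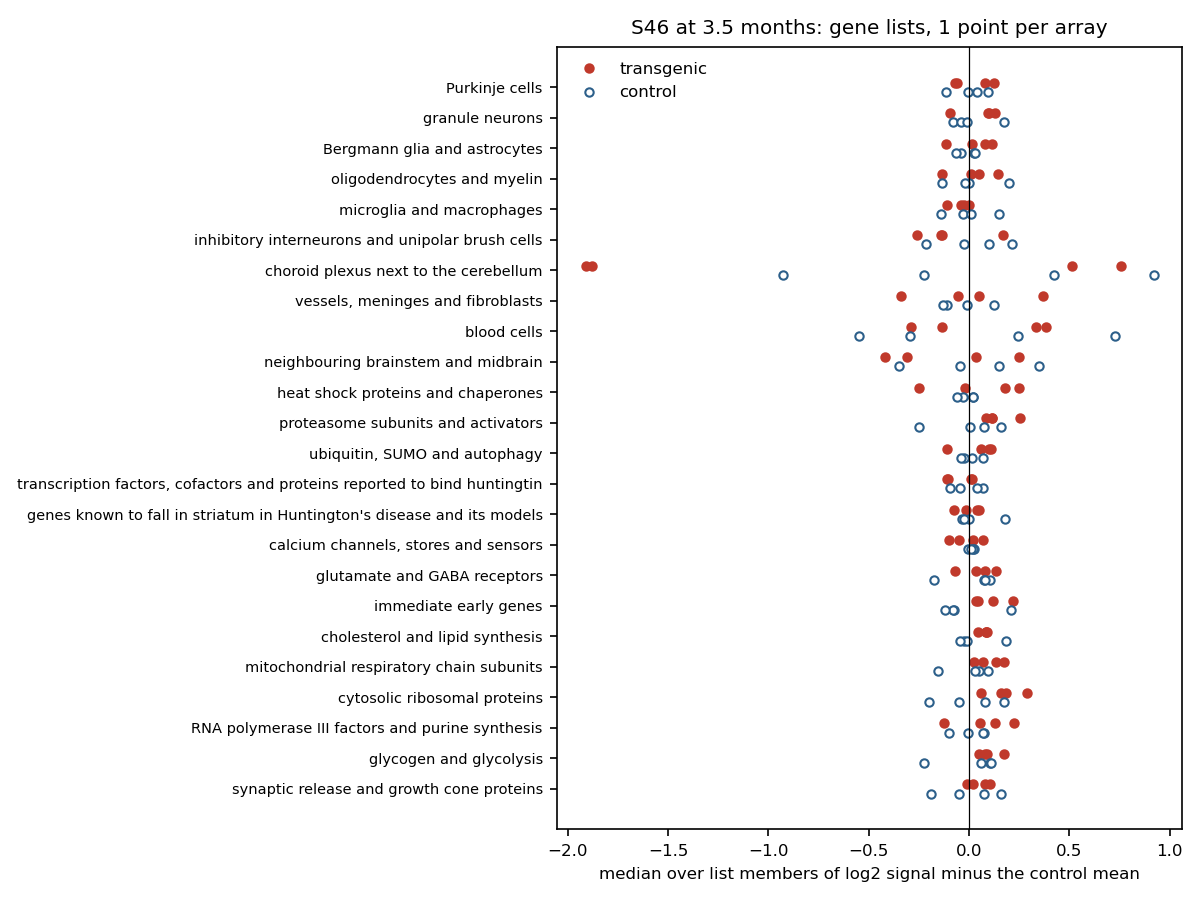
Median over the tested members of each gene list, as log2 signal minus the control mean of each gene, with 1 point per array for transgenic mice (filled) and controls (open). Transgenic and control points overlap in every list, the choroid plexus list is spread most widely (−1.910 to 0.920), and the Purkinje list lies between −0.117 and 0.127.

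Lists of gene functions linked to polyglutamine disease gave few members below an unadjusted p of 0.05, where 5.42% of all probe sets were higher and 5.78% lower. Heat shock proteins and chaperones had 1 higher and 1 lower among 26 (median 0.04). The lower one was Fkbp5, a co-chaperone of the glucocorticoid receptor that glucocorticoids induce. It read 65.7, 74.8, 60.4 and 149.5 in transgenic mice against 135, 173, 220.0 and 199 in controls (51.2%, log2 −0.97, SE 0.26, limma adjusted p = 0.214). Transgenic mouse 4 lay apart from the other 3 and inside the range of controls. The higher one was Bag1, a nucleotide exchange factor of Hsp70, at 121% of control.

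Proteasome genes had 6 of 33 higher and 0 lower at an unadjusted p below 0.05, where 5.42% of all probe sets were higher and 5.78% lower, with a median of 0.08. Psma2 (127%) and Psma3 (124%), subunits of the core, and Psmc2 (134%), an ATPase of the cap, were among the 6. Psma2 read 2702, 2397, 2716 and 2640 in transgenic mice against 2412, 2445, 1923 and 1584 in controls (limma adjusted p = 0.249), so control 4 was the lowest array. Without control 4 the log2 differences of Psma2 and Psma3 were 0.21 and 0.16, against 0.34 and 0.32 with it, and without transgenic mouse 4 that of Psmc2 was 0.28 against 0.43. Without transgenic mouse 3 and control 4 the count was 2. Among 28 genes of ubiquitin and autophagy (median 0.01), Vcp, the p97 ATPase, was 124% of control on 1 of 3 probe sets, which gave log2 differences of 0.31, 0.14 and −0.27. Atg7, which starts the conjugation step of autophagy, was 56.2% of control (log2 −0.83, or −0.53 without transgenic mouse 2). Factors reported to bind huntingtin had 1 higher and 1 lower of 22 (median −0.02). Those were Gtf2b, the basal factor TFIIB (134%), and Ppargc1a, the mitochondrial co-activator PGC-1 alpha, at 71.2% (limma adjusted p = 0.425). Gtf2b read 689, 643, 1015 and 560.4 in transgenic mice against 690.3, 700.3, 628 and 249 in controls. Its log2 difference of 0.42 became 0.07 without control 4 and −0.09 without transgenic mouse 3 and control 4, so it had no stable direction. Of 14 genes known to fall in the striatum in Huntington's disease models, 1 had an unadjusted p below 0.05, Ptpn5, and the list median was 0.00.

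Signalling lists held few small p values, where 5.42% of all probe sets were higher and 5.78% lower at an unadjusted p below 0.05. None of 27 calcium genes (median −0.04), 18 immediate early genes (median 0.12) or 16 cholesterol and lipid genes (median 0.09) had an unadjusted p below 0.05. In these 3 lists 10, 14 and 11 members were positive. Egr1, an activity-driven transcription factor, was 119% of control (log2 0.25, or 0.05 without control 4). Among 17 glutamate and GABA receptor genes (median 0.03), Gabrb1, a GABA receptor subunit, was 136% of control, and among 22 synaptic genes (median 0.03) Syt4, a vesicle calcium sensor, was 125%.

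Most mitochondrial and ribosomal genes had small positive differences, none past the threshold. Of 57 respiratory chain genes 45 were positive, with a median of 0.10 beside 0.00 for all genes. In that list 8 had an unadjusted p below 0.05 as higher and 3 as lower, where 5.42% and 5.78% of all probe sets did. Among the higher were Ndufb6 of complex I (log2 0.44, or 0.22 without control 4) and Cox7a2 of complex IV (0.30, or 0.13 without transgenic mouse 3). The median was 0.026 to 0.174 in transgenic arrays and −0.156 to 0.095 in control arrays, with control 4 lowest. Without transgenic mouse 3 and control 4 the list median was 0.05, with 1 higher and 3 lower. Of 25 cytosolic ribosomal genes 19 were positive (median 0.16, or 0.10 without those 2 arrays). Rps18 (127%) and Rpl7a (130%) were higher and Rps27 (82.0%) lower. Cox4i1 of complex IV had log2 differences of −0.52 and 0.05 on its 2 probe sets.

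Gtf3c5 and Impdh1 belong to a list of RNA polymerase III factors and purine synthesis. Of its 10 tested genes, 2 were higher and 1 lower at an unadjusted p below 0.05, all 3 without overlap, and the median was 0.05. Over all probe sets 5.42% were higher and 5.78% lower at that p, and 1.49% and 1.77% were so without overlap. The third was Prps1, which makes the ribose precursor of purines, at 122% of control. Phkg2 belongs to glycogen and glycolysis, where 2 of 20 were higher and 1 lower (median 0.09). The other higher one was the glycolytic enzyme Pgam1, which read 3478, 3955, 4122 and 3789 in transgenic mice against 3067, 3103, 3370.1 and 3193 in controls (120%). Of the genes named here Gtf3c5, Phkg2 and Impdh1 had been seen in an earlier reading of these data, so these 2 lists give no independent evidence.

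Transcripts that moved in the other comparisons had medians near 0 in S46 at 3.5 months. In S46 at 10 months 17 probe sets (0.228%) were higher and 57 (0.765%) lower past the threshold. At 3.5 months those 57 had a median of 0.03 and ranged from −0.29 to 0.40, where their median at 10 months was −0.95. None of the 57 had an unadjusted p below 0.05 as lower, where 5.78% of all probe sets did, and 23 were below 0. The 17 had a median of 0.18 at 3.5 months and 0.77 at 10 months, with 14 above 0. Of these 17, 2 were higher at an unadjusted p below 0.05, where 5.42% of all probe sets were. Without transgenic mouse 3 and control 4 that median was 0.08. Marcks, a membrane protein of growing axons that rose at 10 months, was 131% of control at 3.5 months (limma adjusted p = 0.451), and Basp1, Alcam and Fam32a had log2 differences of 0.18, 0.13 and 0.58. Fam32a had a second probe set at 0.01 and Basp1 one at −0.35.

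In S25 at 3 months 109 probe sets (1.46%) were higher and 163 (2.19%) lower. In S46 at 3.5 months the 163 had a median of 0.06 and the 109 a median of 0.05, where the medians in S25 were −0.97 and 0.71. The S25 transgenic mice were 3 males at 3 months, and their controls 1 male at 3 months and 2 females at 2.5 months. The 3 transgenic mice and the male control were processed on 1 fluidics station, and the 2 female controls on another. Sex, age, fluidics station and genotype were thus partly confounded in S25. In A39 at 4 months 34 (0.456%) were higher and 84 (1.13%) lower, and these had medians of 0.08 and 0.06 in S46 at 3.5 months, against 0.62 and −0.71 in A39. Over all 7453 probe sets the log2 differences of S46 at 3.5 months correlated with those of S46 at 10 months at r = 0.13, with those of S25 at r = 0.0327 and with those of A39 at r = 0.173.

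**Figure D5:**
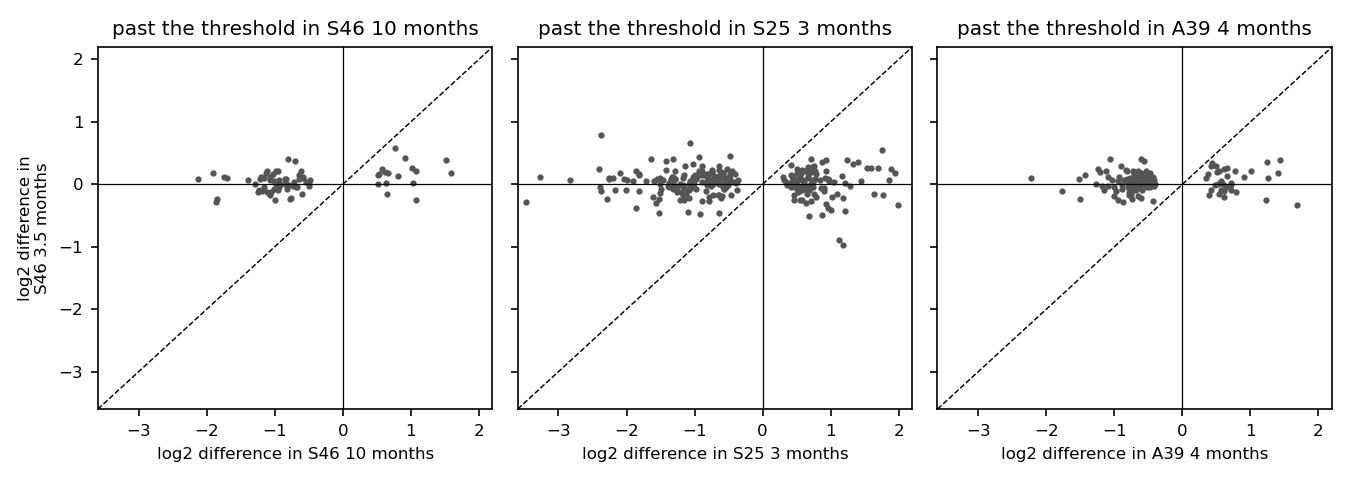
Each point is 1 probe set past the threshold in S46 at 10 months (74 probe sets, left), S25 at 3 months (272, middle) or A39 at 4 months (118, right), with its log2 difference there on the horizontal axis and in S46 at 3.5 months on the vertical axis. Points lie along the horizontal line at 0 and not along the dashed line of equal differences, with medians at 3.5 months from 0.03 to 0.18.

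The effect in S46 at 3.5 months was tested directly against each of the 3 others. Against S46 at 10 months it was higher for 29 probe sets (0.389%) and lower for 1 (0.0134%). All 29 were among the 57 that had fallen at 10 months. Rmdn3, a mitochondrial tether to the endoplasmic reticulum, read 1522, 1378, 1676 and 1636 in transgenic mice at 3.5 months against 1210.0, 1251, 1068 and 1155 in controls, without overlap (132%, limma adjusted p = 0.249). It was lowered at 10 months (log2 −0.81), and the difference was 1.21 (limma adjusted p = 7.9e-05). Kcnma1, the BK potassium channel, differed by 0.92 and Cck, a neuropeptide, by 1.57. Cck read 1496, 1304, 854 and 1174 in transgenic mice at 3.5 months against 1694, 1218, 1234 and 1721 in controls (82.0%, limma adjusted p = 0.656), and its log2 difference at 3.5 months was −0.13 without transgenic mouse 3 and −0.29 with it. The 1 lower probe set was Ids, a lysosomal sulfatase, with a difference of −1.39 (limma adjusted p = 0.0336). The difference of Ids lost the threshold without any 1 of 10 of the 14 arrays (highest adjusted p 0.113), and that of Cck without any 1 of 3 arrays of S46 at 10 months (highest 0.126).

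Against S25 at 3 months 107 (1.44%) were higher and 44 (0.590%) lower. Cck differed by 3.19 log2 units and Plekho1 by 3.17, and Plekho1 lost the threshold without transgenic mouse 2 or control 2 of S25 (highest limma adjusted p 0.0665). Col18a1, a basement membrane collagen, differed by 2.66 and 2.04 on 2 probe sets. Slc1a6 differed by 2.36, Car8, a carbonic anhydrase-related protein that damps the inositol trisphosphate receptor, by 2.34 and Ppp1r17 by 2.28. Nr4a2, an orphan nuclear receptor, differed by 2.05. Among the lower, Fkbp5 differed by −2.14, since it was higher in S25 mice (log2 1.18, limma adjusted p = 0.0166) and at −0.97 in S46 mice at 3.5 months. Pelo, a ribosome rescue factor, read 243, 145, 198 and 179 in transgenic S46 mice against 303, 261, 231 and 306 in controls (70.8%, limma adjusted p = 0.235). Its effect differed from that in S25 by −1.36. Acyp1 differed by 0.93 and Slc7a5 by −0.75, both from the lists of genes with the smallest p above. Against A39 at 4 months 23 (0.309%) were higher and 2 (0.0268%) lower. Fkbp5 was 1 of these 2, with a difference of −1.67 (limma adjusted p = 0.0186), which missed the threshold without S46 control 3 or without transgenic A39 mouse 3 (highest adjusted p 0.062). Fam107b (1.28), Rgs8 (1.10) and Car2 (0.74), a carbonic anhydrase of oligodendrocytes, were among the 23. The count against A39 was 43 without transgenic mouse 3.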

How the data were processed

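Cerebellar RNA was measured on MG-U74Av2 arrays in 48 samples. The deposited values are probe-set intensities of the authors' MAS5 processing, per the submitters' processing notes, whose version is not given in the sources used here. The deposited array records, used as other values, gave scan day, chip lot and fluidics station, per the file headers. Arrays were brought to the same trimmed mean (2% trimmed), 18.7 (the 10th percentile) was added, and log2 was taken. Of 12488 probe sets, 66 controls were left out, as were those with a mean signal under the 40th percentile, which left 7453, of which 6715 had 1 gene symbol. One limma fit (limma 3.58.1, R 4.3.3) over all 48 arrays gave each group a mean, with 34 residual degrees of freedom. The p-values were adjusted within each comparison at 0.05. The fit was tested on simulated data. The members and lists were chosen with earlier results of these data known. Named genes were the 12 higher and 12 lower with the smallest p and no overlap between groups, Htt, the Purkinje list, up to 4 of each other list, and up to 6 rises and 6 falls of each further comparison. For a gene with several probe sets the brightest stood for it in lists. Alternatives changed the pseudocount, filter, normalization, arrays, covariates and variance model. The number of arrays limits the precision.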

Additional observations from a re-analysis of the deposited data

Results flagged for a closer look

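Values of 1 array lay outside the rest of its group by Dixon's test in 9 of 94 groups of 4 arrays, where chance gives about 1 in 20. Among single genes these were Fkbp5 in transgenic mouse 4 (149.5), the dimmer Htt probe set in control 4 (481) and Folr1 in control 1 (399). Among list medians, in log2 units from the control mean, they were granule neurons in transgenic mouse 3 (−0.093), receptors (−0.177) and glycogen and glycolysis (−0.223) in control 4, and striatal genes (0.178), immediate early genes (0.207) and cholesterol synthesis (0.182) in control 1.

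The effect in S46 at 3.5 months differed from that of another comparison, by the limma test of the difference, for the following named genes, in log2 units. Against S46 at 10 months the Purkinje list members Calb1, Inpp5a, Ppp1r17, Homer3, Atp2a3, Slc1a6, Rgs8 and Fam107b differed by 1.19, 1.20, 1.32, 1.08, 1.13, 1.26, 1.13 and 0.98. Second probe sets of Pcp2 and Ppp1r17 differed by 1.29 and 1.12. Rmdn3 differed by 1.21, Kcnma1 by 0.92, Cck by 1.57, Hk2 (hexokinase) by 1.87 and Ids by −1.39. Adjusted p values ran from 2.53e-06 for Calb1 to 0.0463 for the second probe set of Ppp1r17, which lost the threshold without any 1 of 10 of the 14 arrays (highest 0.263). Leaving out any 1 of 5 of the 14 arrays took Hk2 past 0.05 (highest 0.0686).

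Against S25 at 3 months Calb1, Inpp5a, Ppp1r17, Homer3, Atp2a3 and Slc1a6 differed by 2.00, 2.07, 2.28, 1.71, 1.91 and 2.36. Rgs8, Pcp2, Pvalb, Car8 and Fam107b differed by 2.06, 1.61, 0.92, 2.34 and 1.51. Second probe sets of Pcp2 and Ppp1r17 each differed by 1.08. Higher effects outside that list were Acyp1 (0.93), Rmdn3 (1.72), Kcnma1 (0.80), Cck (3.19), Plekho1 (3.17), Col18a1 (2.66 and 2.04 on 2 probe sets), Nr4a1 (1.96), Nr4a2 (2.05), Idi1 of cholesterol synthesis (0.92) and Car2 (0.62). Lower ones were Mapt (−0.79), Slc7a5 (−0.75), Basp1 (−1.77), Fkbp5 (−2.14), Pelo (−1.36), C1qa (−1.80), Gfap (−1.39), Ctss (−1.30), Kcnk2 (−1.19) and 2510002D24Rik (−1.64). Adjusted p values ran from 3.38e-13 for Calb1 to 0.0404 for Mapt. Mapt lost the threshold without any 1 of 9 of 14 arrays (highest 0.118) and Car2 without any 1 of 7 (highest 0.101). The second probe set of Ppp1r17 lost it without any 1 of 4 arrays, Plekho1 and Kcnk2 without any 1 of 2, and Nr4a1 and the 2.04 of Col18a1 without 1 (highest 0.0889).

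Against A39 at 4 months the differences were 0.88 for Calb1, 1.03 for Inpp5a, 0.86 for Homer3, 1.10 for Rgs8, 1.28 for Fam107b, 1.00 for Rmdn3, 0.78 for Kcnma1, 0.74 for Car2, 1.50 for Col18a1 and −1.67 for Fkbp5. Adjusted p values ran from 1.04e-07 for Fam107b to 0.0238 for Col18a1. Col18a1 lost the threshold without any 1 of 3 of the 16 arrays (highest 0.0926).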

How the results depend on the processing

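The count of 0 past the threshold was 6 without a filter on low values, 1 with a filter at the 20th percentile, 10 with the female arrays alone and 0 to 5 with single arrays left out (5 without control 1, 2 without transgenic mouse 1, and 1 without transgenic mouse 2 or 3 or control 2 or 3). It was 0 with pseudocounts of 1 and 50, quantile normalization, sex or scan day in the fit, another variance model and the 8 arrays alone. The 835 probe sets with an unadjusted p below 0.05 became 1378 without a filter, 385 with the 8 arrays alone, 365 with the replicate number as a block, 386 with the fluidics station as a block and 581 to 1099 with single arrays left out. Same-numbered mice correlated at 0.139, −0.071, 0.072 and −0.047 in their deviations from the group means. These few values cannot tell whether the numbers paired the mice, since deviations within a group add up to 0. Sex and fluidics station followed the numbers. Probe sets without overlap numbered 418 without a filter, against 243. Quantile normalization gave 496 higher and 391 lower, or 55.9% higher against 48.4%.

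Probe sets lower in S25 had a median of 0.02 with quantile normalization, 0.02 without transgenic mouse 3 and control 4, and 0.01 to 0.07 with single arrays left out. Those higher in S46 at 10 months had 0.08 without those 2 arrays. The 25 differences from A39 became 42 without those 2 arrays and 22 to 43 with single arrays left out. Counts of differences from S46 at 10 months (30) and S25 (151) were 21 to 36 and 108 to 178 with single arrays left out. One control of S46 at 10 months and 1 of A39 at 4 months bear the same animal number. Each was scanned on the day and chip lot of the other comparison, apart from the rest of its own. Both comparisons therefore mix scan days and chip lots. Without both controls, the 3 counts were 23, 147 and 22, and with them exchanged 26, 134 and 23.

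Signs turned for these genes, none past the threshold. With quantile normalization Rgs8, Pvalb and Fam107b stood at −0.03, −0.04 and −0.05. With female arrays alone Fam107b stood at −0.05 and Kcnma1 at −0.02. Without transgenic mouse 3 and control 4 the values were Gad1 0.09, Ppp1r17 −0.03, Rgs8 −0.01, Pcp2 −0.08, Pvalb −0.13, Car8 0.21, Hk2 −0.35, Ctss 0.12 and Gtf2b −0.09. With single arrays left out the ranges were Fam107b −0.02 to 0.04, Car8 −0.18 to 0.13, Ctss −0.16 to 0.11, Gad1 −0.36 to 0.05, Atp2a3 −0.17 to 0.01, Pcp2 0.00 to 0.26, Pvalb −0.07 to 0.09, Hk2 −0.17 to 0.27 and Slc1a6 0.00 to 0.19. Of 89 gene effects 76 kept 1 sign. Of 59 gene differences 46 kept the threshold in every setting. Ids, Hk2, Cck and the second Ppp1r17 probe set against S46 at 10 months lost it in some, as did Mapt, Car2, Plekho1, Kcnk2, Nr4a1, 1 Col18a1 probe set and the second of Ppp1r17 against S25, and Fkbp5 and Col18a1 against A39. The causes were not tested. The station block, the removal or exchange of the 2 controls with 1 animal number, the removal of transgenic mouse 3 with control 4, and the single arrays left out of the other comparisons were chosen after seeing the data.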

Other observations

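Gtf3c5 passed the threshold without control 1 and in the female arrays alone (limma adjusted p = 0.0101 and 0.0315). Pttg1ip passed without control 1 (limma adjusted p = 0.0205). Phkg2 passed without transgenic mouse 1 and in the female arrays (limma adjusted p = 0.0479 and 0.0482). A different probe set with no gene symbol passed without transgenic mouse 1, without control 1 and in the female arrays. In the latter its log2 difference was −2.08 (limma adjusted p = 9.82e-05). Further genes past the threshold in some settings only were named after their values were seen. Serpinb2, a protease inhibitor below the signal filter, had a log2 difference of 1.65 and an adjusted p of 0.00465 in limma without that filter. Fgd1, which activates the GTPase Cdc42, read 178, 151, 282 and 211 in transgenic mice against 87.4, 47.2, 232 and 90.4 in controls, and passed without control 3 (1.26, limma adjusted p = 6.55e-05). Xpc, a sensor of DNA damage, read 194, 147, 162 and 169.9 in transgenic mice against 74.6, 247, 44.8 and 30.8 in controls, and passed without control 2 (1.49, limma adjusted p = 2.12e-05). In Fgd1 the control left out (232) lay among the transgenic values. In Xpc the control left out (247) lay above all of them.

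Fgfr2, a growth factor receptor, was split within the transgenic group on 1 probe set, at 132, 665, 617 and 133 in transgenic mice against 661.5, 707, 687 and 654 in controls. Its other probe set had a log2 difference of 0.24. Hbs1l, the partner of Pelo in ribosome rescue, read 923, 924, 1034 and 986 in transgenic mice against 934, 742, 752 and 773 in controls (121% of control). It passed in 2 settings that leave out control 1. Both probe sets of Pelo were low, at −0.50 and −0.49.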
